A study of Mus musculus with 18 samples.

Results

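NF-kappaB is a family of dimeric transcription factors. The transcripts of its 5 subunits (Nfkb1, Nfkb2, Rel, Rela and Relb) and of 5 inhibitor genes of the IkappaB type (Nfkbia, Nfkbib, Nfkbie, Nfkbiz and Bcl3) were followed here in mouse BMDMs, macrophages that are derived in a dish from precursors in the bone marrow. These 10 genes form a list set by name, 10 of the 22598 genes in the deposited count tables, and were found there by their Ensembl identifiers through GENCODE M21. The list was chosen with earlier results of these data known. RNA was sequenced from 18 libraries in 6 groups of 3, all labelled WT and all at 18 h. The groups were cells given interferon-gamma (IFNg) with tumour necrosis factor (TNF), IFNg with lipopolysaccharide (LPS, a bacterial cell wall product), IFNg with hypoxia, IFNg with interleukin-1 beta (IL1b), IFNg alone, and a control labelled ctrl. No addition was given without IFNg, so every effect of an addition is one on top of IFNg, and the 4 additions share the same IFNg libraries as their comparison. The sources used here give no dose, oxygen level, mouse strain, sex or age. They also do not state whether replicate libraries stem from different mice or dishes, and the p-values therefore reflect only how much these libraries vary, part of which may be technical.

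In resting cells the classical inhibitors IkappaB-alpha (from Nfkbia), IkappaB-beta (Nfkbib) and IkappaB-epsilon (Nfkbie) hold dimers of Rela, Rel and p50 in the cytoplasm. Receptors for TNF, IL1b and LPS activate the IkappaB kinase complex, the inhibitors are degraded, and the freed dimers enter the nucleus and switch on genes, those for their own inhibitors among them. In the slower non-canonical arm the Nfkb2 product p100 is processed to p52, which acts with Relb. Nfkbiz and Bcl3 encode nuclear proteins of the same ankyrin-repeat type that bind p50 or p52 and act as cofactors rather than as cytoplasmic anchors. All of these steps on proteins are outside what RNA sequencing measures.

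The deposited counts summed to between 12270565 and 20952799 per library. Levels are given as CPM, the count relative to the library's total after TMM scaling between libraries, as 1 value per library or a mean ± SD of 3 libraries. Levels of different genes are compared per length, as the deposited RPKM (reads scaled by gene length and library total). All 10 members passed the filter on low counts and were among the 11563 genes tested with edgeR, where an adjusted p under 0.05 is a call and a log2 fold change is given ± its standard error (SE). Macrophage markers were all among the tested genes, and 3 of 6 B cell genes (Ms4a1 and Pax5 among them), 4 of 5 T cell genes (Cd3e, Cd3d, Cd3g and Trbc2) and 3 of 3 NK cell genes (Ncr1, Klrb1c and Eomes) had 0 counts in every library. The other B cell genes summed to 0.167 to 16.2 CPM and the other T cell gene reached 0.333 CPM. Genes of dendritic cells, fibroblasts and endothelium were detected at low sums, of 1.65 to 8.09, 2.25 to 12.5 and 13.1 to 89 CPM. In bulk RNA, fewer cells of a type and less RNA per cell cannot be told apart.

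Promoter windows from RefSeq (build GRCm38.p6, from 250 bases before the annotated start to 50 bases from it onward) were matched by symbol for 7 of the 10 members, with 9 windows in all. No window was used for Nfkb1, Relb and Nfkbiz. Both strands were searched for the kappaB consensus, the general NF-kappaB binding motif, for GGANTTTCC, a form of it that can overlap the consensus by up to all of its bases, and for TTCNNNGAA, the motif of STAT factors. The kappaB consensus was found in 5 of the 7 members, against 5.14% of the 27025 genes with a window (7 of 9 member windows, against 4.51% of all 32851 windows). GGANTTTCC was found in 2 members, against 1.45% of genes, and TTCNNNGAA in 1 member (Nfkb2), against 9.55% of genes. Nfkb2 has 3 windows, and a gene with more windows has more chances to hold a motif. Those at chr19:46305445-46305744 and chr19:46305680-46305979 overlap. The only consensus match of the latter also lies in the former, so this site is counted in both. Rela and Nfkbib had none of the 3 motifs in this window, which says only that these letters are not there. A match is a description of the sequence and not a measured binding site. The windows below are those of the 2 inhibitors that changed most with TNF, of the subunit with a window that changed most, of the nuclear inhibitor Bcl3, and of Rel, which holds the consensus too but did not pass the test with TNF. They run 5′ to 3′ on the gene's strand, and capitals mark the kappaB consensus or GGANTTTCC.
Nfkbie (chr17:45555450-45555749, plus strand): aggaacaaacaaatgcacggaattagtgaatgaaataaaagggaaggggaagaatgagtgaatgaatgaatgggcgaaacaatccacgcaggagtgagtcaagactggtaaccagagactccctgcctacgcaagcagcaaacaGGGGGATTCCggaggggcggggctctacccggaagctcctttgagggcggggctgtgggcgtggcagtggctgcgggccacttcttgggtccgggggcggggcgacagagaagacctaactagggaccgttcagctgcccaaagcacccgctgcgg
Nfkbia (chr12:55492598-55492897, minus strand): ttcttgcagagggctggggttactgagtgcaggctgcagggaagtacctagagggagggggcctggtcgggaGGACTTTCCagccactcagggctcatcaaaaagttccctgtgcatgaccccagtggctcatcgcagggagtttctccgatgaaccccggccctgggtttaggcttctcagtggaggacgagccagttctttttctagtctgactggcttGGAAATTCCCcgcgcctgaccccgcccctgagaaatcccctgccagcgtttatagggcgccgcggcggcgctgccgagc
Nfkb2 (chr19:46304487-46304786, plus strand): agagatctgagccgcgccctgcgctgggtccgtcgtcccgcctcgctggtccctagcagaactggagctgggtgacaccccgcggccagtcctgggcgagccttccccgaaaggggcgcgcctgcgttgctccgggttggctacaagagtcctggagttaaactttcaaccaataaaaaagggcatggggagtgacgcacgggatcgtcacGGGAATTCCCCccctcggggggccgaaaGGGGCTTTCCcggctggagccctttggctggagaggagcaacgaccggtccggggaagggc
Bcl3 (chr7:19822706-19823005, minus strand): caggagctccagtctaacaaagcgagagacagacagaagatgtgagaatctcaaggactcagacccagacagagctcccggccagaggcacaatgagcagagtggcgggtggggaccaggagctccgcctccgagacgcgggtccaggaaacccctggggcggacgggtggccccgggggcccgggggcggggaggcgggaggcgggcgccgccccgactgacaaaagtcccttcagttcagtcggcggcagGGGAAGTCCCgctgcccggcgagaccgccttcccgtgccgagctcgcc
Rel (chr11:23770920-23771219, minus strand): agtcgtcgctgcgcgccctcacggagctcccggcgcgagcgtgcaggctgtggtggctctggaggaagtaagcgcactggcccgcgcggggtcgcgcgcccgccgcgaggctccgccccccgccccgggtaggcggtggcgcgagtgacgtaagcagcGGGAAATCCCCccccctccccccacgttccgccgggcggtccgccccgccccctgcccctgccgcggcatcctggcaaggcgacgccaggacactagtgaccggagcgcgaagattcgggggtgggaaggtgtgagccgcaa

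Counted from the start, the match in Nfkbie lies at -106 to -97 and that in Bcl3 at 3 to 12. Nfkbia has GGANTTTCC at -178 to -170 and the consensus at -29 to -20. In the printed window of Nfkb2 the consensus occurs at -39 to -30, again shifted by a base on the other strand, and at -11 to -2. In Rel it lies at -92 to -83, also with a shifted match on the other strand.

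Addition of TNF to IFNg gave the broadest change of the family. In IFNg with TNF, 9 of the 10 members were higher than in IFNg alone and none was lower, and for these 9 the ranges of the 2 groups did not overlap. The share of all genes with ranges apart was not counted. Counts of members apart, here and below, therefore have no background beside them and only describe these genes. Of all tested genes 44.7% were called in this comparison, 22.1% higher and 22.6% lower. The median log2 fold change was 1.81 over the members and -0.05 over all genes. Nfkbie and Nfkbia changed most among the members, followed by Relb and Nfkb2, the pair of the non-canonical arm.

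Nfkbie, which encodes IkappaB-epsilon, had 311, 291 and 334 CPM in the 3 libraries of IFNg with TNF, against 10.8, 14.4 and 9.09 CPM in those of IFNg alone. The lowest TNF library was far above the highest IFNg library. The fold was 27.2 (log2 4.77 ± 0.30 SE, edgeR adjusted p = 4.99e-11). The Nfkbie window above holds 1 match to the kappaB consensus, as do those of Nfkbia and Bcl3. Nfkbia, which encodes IkappaB-alpha, itself a well-known NF-kappaB target, had 469, 346 and 420 CPM with TNF, against 54.8, 48.8 and 36.8 CPM in IFNg. The fold was 8.79 (log2 3.14 ± 0.17, edgeR adjusted p = 2.34e-14). Nfkbib, which encodes IkappaB-beta, had 143, 102 and 152 CPM with TNF, against 44.4, 51.6 and 43.5 CPM in IFNg. Its groups were also apart, at a smaller fold of 2.85 (log2 1.51 ± 0.22, edgeR adjusted p = 4.07e-06).

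Among the subunits, Relb had 145, 142 and 138 CPM with TNF, against 27.8, 25.1 and 18.0 CPM in IFNg. Its 3 TNF libraries lay close together, and the fold was 5.98 (log2 2.58 ± 0.21, edgeR adjusted p = 6.63e-11). Nfkb2, whose product p52 pairs with the product of Relb, had 419, 379.8 and 375 CPM with TNF, against 71.8, 65.4 and 77.2 CPM in IFNg, a fold of 5.48 (log2 2.45 ± 0.14, edgeR adjusted p = 5.92e-14). Rela, which encodes p65, the main activating subunit of the canonical arm, had 385, 529 and 459 CPM with TNF, against 126, 161 and 144 CPM in IFNg. The fold of Rela was 3.19 (log2 1.67 ± 0.13, edgeR adjusted p = 3.02e-11). The other canonical subunits moved little. Nfkb1, which encodes p105 and its product p50, had 338, 353 and 326 CPM with TNF, against 299, 261 and 290 CPM in IFNg, a log2 difference of 0.26 ± 0.10 (edgeR adjusted p = 0.0311). Rel, which encodes c-Rel, had 43.4, 60.1 and 48.2 CPM with TNF, against 35.1, 54.6 and 41.9 CPM in IFNg, with overlapping groups and a log2 difference of 0.21 ± 0.19 that did not pass the test (edgeR adjusted p = 0.406).

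Of the nuclear inhibitors, Bcl3, which binds p50 and p52 homodimers, had 103, 120 and 136 CPM with TNF, against 33.5, 29.8 and 29.7 CPM in IFNg (log2 1.95 ± 0.17, edgeR adjusted p = 3.42e-10). Nfkbiz, which encodes IkappaB-zeta, a cofactor for secondary response genes, had 46.5, 37.4 and 39.6 CPM with TNF, against 24.1, 29.7 and 21.1 CPM in IFNg. Its groups were apart, but the log2 fold change of 0.72 ± 0.18 was smaller than that of Bcl3 (edgeR adjusted p = 0.00195).

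Beside these changes, 8 of the 9 tested markers on a list of 10 for neutrophils and their precursors were lower with TNF, none of the 10 being at 0 throughout, with a summed level of 8.17 to 14.4 CPM in IFNg with TNF and 108 to 126 CPM in IFNg. Of 10 macrophage markers 2 were higher and 6 lower, with sums of 14707 to 15246 CPM with TNF and 14754 to 16512 CPM in IFNg. B cell markers summed to 0.167 to 1.57 CPM with TNF and 4.38 to 6.84 CPM in IFNg, with the 1 tested lower, and endothelial markers to 51.2 to 89 and 38.9 to 48.6 CPM in the same order, with 1 higher and 1 lower. Their part in the result was not tested. The call on Nfkb1 was the least secure. Libraries were also scaled by the totals that the RPKM values imply, which moves the median of all genes to -0.37. Nfkb1 then stood at -0.06 (edgeR adjusted p = 0.635) and Nfkbiz at 0.40 (edgeR adjusted p = 0.0855). So 7 members were called, all higher, beside 1685 higher and 3985 lower of all genes. Nfkb1 also missed the threshold without TNF library 1 (0.26, adjusted p = 0.0599) or 2 (0.23, 0.0995), without IFNg library 2 (0.20, 0.148) or 3 (0.28, 0.057), without the filter on low counts (0.0818) and in a fit of only the 2 groups (0.0697).

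**Figure D1:**
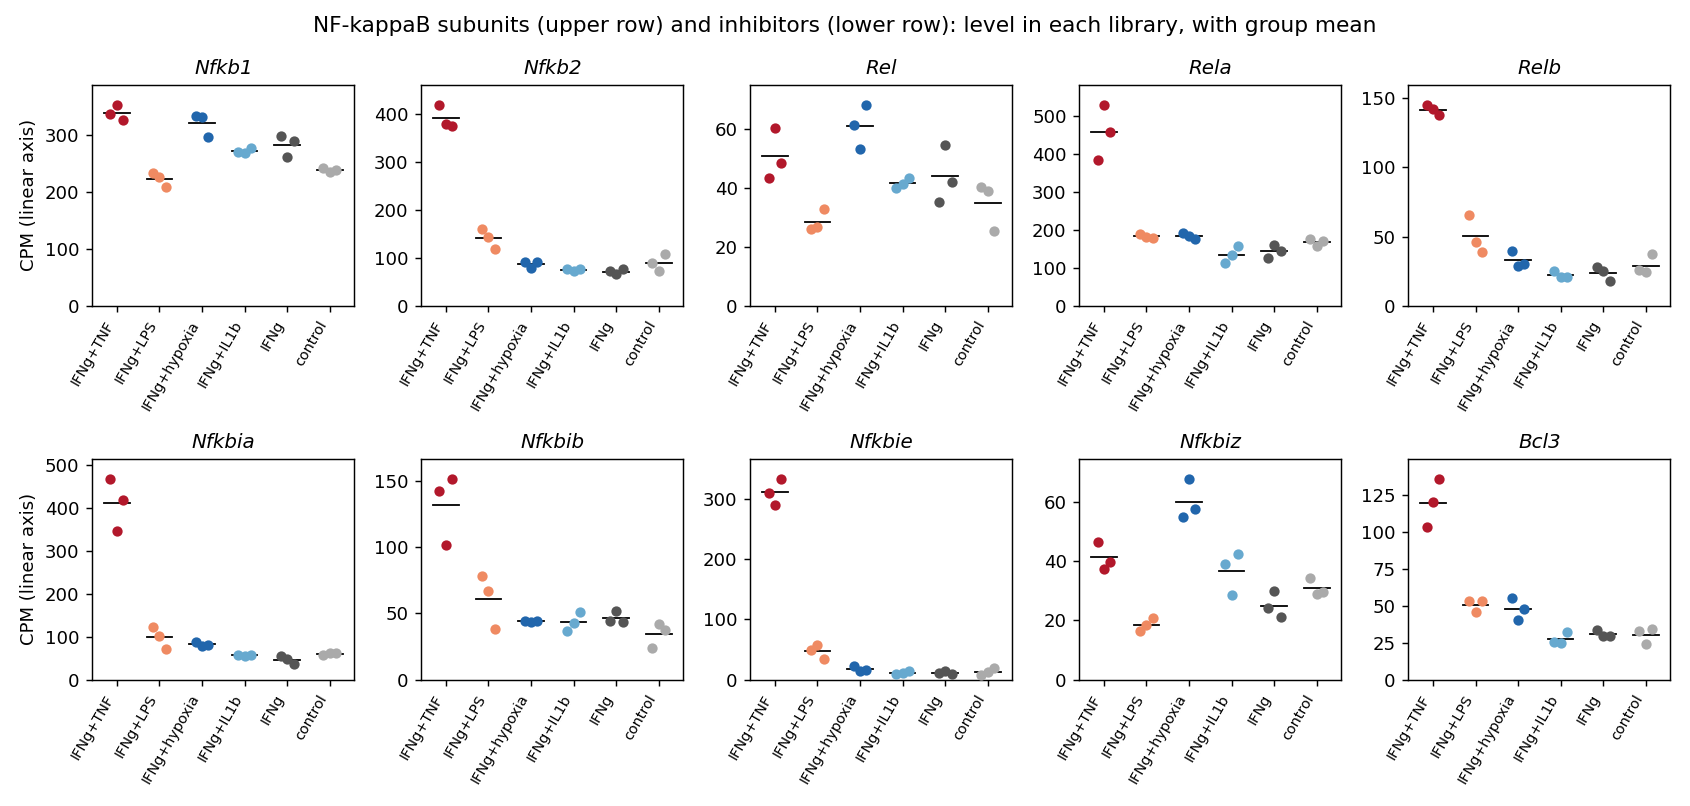
Level of each member in every library, in CPM on linear axes from 0, with the group mean as a black line. In 7 panels (Nfkb2, Rela, Relb, Nfkbia, Nfkbib, Nfkbie and Bcl3) the 3 IFNg with TNF libraries stand above the libraries of every other group, while Nfkbiz is highest with hypoxia and Nfkb1 and Rel differ less between groups.

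Genes around the members were read from 4 lists drawn up for the pathway, also with earlier results of these data known. Their counts are to be read beside the share of all genes called in the same comparison. In IFNg with TNF against IFNg, 21 of 24 tested NF-kappaB target genes were higher and 1 was lower (Xiap, an inhibitor of caspases, log2 -0.44 ± 0.17, edgeR adjusted p = 0.0354), with a median log2 fold change of 3.59, also with the 3 genes that had 0 counts in IFNg set at their bounds. The lower call ended without TNF library 1 or 3, without IFNg library 2 or 3 and in a fit of only the 2 groups, while 21 were higher in each. The genes at 0 were Il6, at 17.6 ± 5.19 CPM with TNF and at least 304-fold higher, the neutrophil chemokine gene Cxcl3, at 15.6 ± 3.95 CPM and at least 262-fold higher, and Il12b, at 7.24 ± 2.56 CPM and at least 123-fold higher. These bounds set the IFNg group at 3 counts in all. Of 15 feedback inhibitors outside the members 10 were higher and 2 lower, or 5 and 3 with the totals behind the RPKM values. Tnfaip3, which encodes the ubiquitin-editing enzyme A20, stood at 456 ± 42.0 CPM with TNF and 43.2 ± 5.63 CPM in IFNg (log2 3.40 ± 0.14, edgeR adjusted p = 1.39e-16). Its partner Tnip1 changed by 2.52 ± 0.13 and N4bp1 by 2.19 ± 0.12, while Pdlim2, a ligase for nuclear p65, changed by -1.66 ± 0.18 and the linear deubiquitinase gene Otulin by -1.32 ± 0.15.

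In the non-canonical arm 4 of 9 genes were higher with TNF and 1 was lower, or 4 and 3 with the totals behind the RPKM values. Cd40, a receptor that engages this arm, stood at 466 ± 45.4 CPM with TNF and 50.0 ± 6.87 CPM in IFNg (log2 3.22 ± 0.17, edgeR adjusted p = 4.81e-14). The ubiquitin ligase gene Birc3 changed by 2.07 ± 0.14 and the TNF receptor gene Tnfrsf1b by 1.98 ± 0.17, while the RANK gene Tnfrsf11a changed by -1.0 ± 0.19. The list of upstream signalling genes was split, with 10 of 26 higher and 7 lower, or 7 and 9 with the totals behind the RPKM values. The adaptor kinase gene Irak2 (2.16 ± 0.12), the adaptor gene Traf2 (1.54 ± 0.19) and the kinase gene Ikbke (1.29 ± 0.25) were the highest. Map3k8, a kinase held by the Nfkb1 product p105, stood at 11.3 ± 7.67 CPM with TNF and 31.0 ± 5.64 CPM in IFNg (log2 -1.44 ± 0.38, edgeR adjusted p = 0.00455).

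LPS split the family. In IFNg with LPS 5 members were higher than in IFNg alone and 2 were lower, against a background of 20.3% of all genes called, 10.2% higher and 10.1% lower. The ranges of the 2 groups were apart for 9 members. The median log2 fold change was 0.55 over the members and -0.00 over all genes. Nfkbie had 48.7, 57.4 and 34.4 CPM with LPS, against 10.8, 14.4 and 9.09 CPM in IFNg, a fold of 4.1 (log2 2.04 ± 0.27, edgeR adjusted p = 1.22e-05). Relb had 65.4, 46.3 and 38.5 CPM with LPS, against 27.8, 25.1 and 18.0 CPM in IFNg (log2 1.08 ± 0.20, edgeR adjusted p = 0.000207). Nfkbia had 123, 101 and 71.2 CPM with LPS, against 54.8, 48.8 and 36.8 CPM in IFNg (log2 1.07 ± 0.16, edgeR adjusted p = 1.16e-05). In these 3 genes no LPS library fell as low as an IFNg library, although LPS library 3 was the lowest of its group in each. Nfkb2 (141 ± 20.5 CPM with LPS and 71.4 ± 5.89 CPM in IFNg, log2 0.98 ± 0.13) and Bcl3 (50.6 ± 4.38 and 31.0 ± 2.19 CPM in the same order, log2 0.71 ± 0.17) were higher too.

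The 2 subunits that changed least with TNF, Nfkb1 and Rel, were lower with LPS. Nfkb1 had 233, 227 and 209 CPM with LPS, against 299, 261 and 290 CPM in IFNg (log2 -0.35 ± 0.10, edgeR adjusted p = 0.0102). Rel had 25.9, 26.8 and 32.9 CPM with LPS, against 35.1, 54.6 and 41.9 CPM in IFNg (log2 -0.62 ± 0.19, edgeR adjusted p = 0.0206). Their groups were apart, by a narrow margin in Rel. Rela (log2 0.35 ± 0.13, edgeR adjusted p = 0.0517), Nfkbib (0.40 ± 0.22, 0.225) and Nfkbiz (-0.43 ± 0.18, 0.104) did not pass the test. Nfkb1 missed the threshold without IFNg library 1 (-0.31, edgeR adjusted p = 0.0591) and in a fit of only the 2 groups (0.0506). Rel missed it without IFNg library 2 (-0.43, 0.172), LPS library 1 (-0.54, 0.0858) or LPS library 2 (-0.58, 0.0788). Rela passed it with DESeq2 (0.36, 0.0358), with DESeq2 size factors in edgeR (0.36, 0.0493) and with the library number as a replicate block (0.36, 0.031). Rela also passed without the filter (0.35, 0.0451) and without IFNg library 2 (0.44, 0.0311). It did not pass with the totals behind the RPKM values (0.27, 0.14) or with only the 2 groups (0.35, 0.0662). Nfkbib passed without LPS library 3 (0.65, 0.019). The neutrophil markers were lower here as well, 8 of 9 tested, with sums of 22.3 to 35.8 CPM with LPS and 108 to 126 CPM in IFNg. B cell markers summed to 1.67 to 2.25 CPM with LPS and 4.38 to 6.84 CPM in IFNg, with the 1 tested lower, 1 of 3 endothelial markers was higher and 1 lower, and 2 of 10 macrophage markers were higher. The part of these markers in the result was not tested.

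Of the 24 tested target genes 18 were higher with LPS and 1 was lower (Cd83, log2 -0.93 ± 0.25, edgeR adjusted p = 0.00639), with a median log2 fold change of 2.49, or 2.24 with genes at 0 counts in 1 group set at their bounds. The lower call ended without IFNg library 2. Il12b stood at 2.49 ± 0.624 CPM with LPS and at 0 counts in IFNg, at least 42.8-fold higher, and Il6 at 2.3 ± 0.847 CPM and at least 40.1-fold higher. Il1a, the gene of interleukin-1 alpha, stood at 5.81 ± 0.876 CPM with LPS and 0.12 ± 0.107 CPM in IFNg, the IFNg value resting on 6 counts in the 3 libraries. Of the 15 feedback inhibitors 4 were higher and 2 lower. Tnfaip3 changed by 1.24 ± 0.13, N4bp1 by 1.09 ± 0.11 and Tnip1 by 0.78 ± 0.13, and Pdlim2 (-0.81 ± 0.17) and Otulin (-0.54 ± 0.15) were lower. In the non-canonical arm 4 of 9 were higher and none was lower, among them Cd40 (1.60 ± 0.17), Traf3 (0.84 ± 0.27), the adaptor gene that keeps the arm off, and Birc3 (0.68 ± 0.14), but 2 were called without IFNg library 1 or LPS library 2. Of 26 upstream genes 4 were higher, led by Ikbke (1.01 ± 0.25), Irak2 (0.88 ± 0.12) and Traf2 (0.84 ± 0.19), and 3 were lower, namely Traf5 (-1.0 ± 0.23) and the linear ubiquitin complex genes Rbck1 (-0.64 ± 0.15) and Sharpin (-0.43 ± 0.13). With the totals behind the RPKM values the upstream split was 4 and 5.

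Under hypoxia the member that changed most was Nfkbiz. In IFNg with hypoxia 4 members were higher than in IFNg alone and none was lower, against 25.2% of all genes called, 13.5% higher and 11.8% lower. The ranges were apart for 6 members, and the median log2 fold change was 0.48 over the members and -0.01 over all genes. Nfkbiz had 54.7, 67.7 and 57.6 CPM with hypoxia, against 24.1, 29.7 and 21.1 CPM in IFNg. The lowest hypoxia library was above the highest IFNg library, and the fold was 2.4 (log2 1.26 ± 0.18, edgeR adjusted p = 7.38e-06). Nfkbia had 88.2, 79.3 and 81.1 CPM with hypoxia, against 54.8, 48.8 and 36.8 CPM in IFNg (log2 0.82 ± 0.16, edgeR adjusted p = 0.000301). Bcl3 had 54.9, 40.4 and 47.6 CPM with hypoxia, against 33.5, 29.8 and 29.7 CPM in IFNg (log2 0.62 ± 0.17, edgeR adjusted p = 0.00698). These 3 inhibitors were apart from IFNg in every library.

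Beside these values, 3 of 10 macrophage markers were higher with hypoxia, with sums of 17792 to 18530.3 CPM with hypoxia and 14754 to 16512 CPM in IFNg. B cell markers summed to 12.1 to 16.2 CPM with hypoxia and 4.38 to 6.84 CPM in IFNg, and the 1 tested was higher. The neutrophil sum was 64.2 to 92.8 CPM with hypoxia and 108 to 126 CPM in IFNg with no gene called, and 1 of 3 endothelial markers was lower. The part of these markers in the result was not tested. Rela was close to the threshold, with 191, 184 and 177 CPM with hypoxia, against 126, 161 and 144 CPM in IFNg (log2 0.36 ± 0.13, edgeR adjusted p = 0.0388). Rel (0.47 ± 0.19, edgeR adjusted p = 0.0723), Relb (0.48 ± 0.20, 0.0819), Nfkb2 (0.29 ± 0.13, 0.115), Nfkbie (0.59 ± 0.28, 0.132), Nfkb1 (0.18 ± 0.10, 0.195) and Nfkbib (-0.08 ± 0.22, 0.851) did not pass the test. The totals behind the RPKM values move the median of all genes to -0.26. With them the calls on Rela (0.11, edgeR adjusted p = 0.55) and Bcl3 (0.37, 0.102) ended, and Nfkb1 stood at -0.07. That left 2 members called, both higher, beside 888 higher and 2564 lower of all genes. Rela was called in only 1 of the 6 fits that left out a library, the one without IFNg library 2. Its values were 0.27 without IFNg library 1 and 0.36 without IFNg library 3, and 0.33, 0.36 and 0.38 without hypoxia library 1, 2 and 3. Bcl3 missed the threshold without hypoxia library 1 (0.51, adjusted p = 0.0557), and Rel passed it without IFNg library 2 (0.66, 0.0235) and in a fit of only the 2 groups (0.46, 0.0269).

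Over the 4 lists, 14 of 74 tested genes were higher with hypoxia and 7 lower, beside 13.5% and 11.8% of all genes. Of 24 target genes 7 were higher with hypoxia and 4 lower (median log2 fold change 0.33, or 0.35 with genes at 0 counts at their bounds). Ier3, an early response gene, stood at 48.6 ± 7.08 CPM with hypoxia and 1.68 ± 0.55 CPM in IFNg (log2 4.83 ± 0.41, edgeR adjusted p = 2.25e-08), Ptgs2, the cyclooxygenase-2 gene, at 119 ± 15 and 23.4 ± 3.59 CPM in the same order (2.35 ± 0.16), and Il1b at 6.49 ± 2.62 and 2.25 ± 0.773 CPM (1.57 ± 0.46). The chemokine gene Ccl2 (-2.50 ± 0.43), the costimulatory gene Cd80 (-1.24 ± 0.39) and the survival gene Bcl2l1 (-1.05 ± 0.18) were lower. Of 15 feedback inhibitors 4 were higher, led by Tnfaip3 (1.31 ± 0.13), Tnip3 (0.80 ± 0.17) and N4bp1 (0.74 ± 0.11), and 2 were lower, the low-level genes Nkrf (-1.44 ± 0.53) and Nfkbid (-0.94 ± 0.33), a split of 4 and 4 with the totals behind the RPKM values. The 2 lower calls became 0 without the filter on low counts and without IFNg library 1, hypoxia library 2 or hypoxia library 3, and 1 without IFNg library 2 or 3 or hypoxia library 1. In the non-canonical arm Birc3 was higher (0.87 ± 0.14) and Tnfrsf11a lower (-0.81 ± 0.19). Of 26 upstream genes 2 were higher, Irak2 (0.75 ± 0.12) and the kinase gene Ripk1 (0.41 ± 0.12), and none was lower, but 1 and 4 with the totals behind the RPKM values, and 4 and 3 in a fit of only the 2 groups. The 2 became 1 without IFNg library 1 or hypoxia library 1, and 5 without IFNg library 2.

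Neither IL1b nor IFNg alone gave an edgeR call on any member. In IFNg with IL1b against IFNg, edgeR called 0 of 10 members, against 0.303% of all 11563 tested genes, and DESeq2 called 0, against 84 of all genes. An unadjusted edgeR p under 0.05 was found for 1 member, against 596 of all genes. The member with the low unadjusted p was Nfkbiz, at 39.1, 28.4 and 42.3 CPM with IL1b and 24.1, 29.7 and 21.1 CPM in IFNg, with overlapping groups (log2 0.55 ± 0.18, edgeR unadjusted p = 0.00566, adjusted p = 0.399). Nfkbia had the one pair of groups that did not overlap, at 58.2, 55.9 and 56.3 CPM with IL1b and 54.8, 48.8 and 36.8 CPM in IFNg (0.28 ± 0.16, edgeR adjusted p = 1.0). The others lay between -0.19 ± 0.17 (Bcl3) and 0.07 ± 0.13 (Nfkb2), with a median over the 10 members of -0.07, against -0.00 over all genes. In the pathway lists 3 of 24 target genes were higher with IL1b, Ptgs2 (1.30 ± 0.16), the superoxide dismutase gene Sod2 (0.74 ± 0.13) and the chemokine gene Ccl5 (0.65 ± 0.14), with a median of 0.35, or 0.30 with genes at 0 counts at their bounds. The 3 became 1 without IFNg library 1 or IL1b library 3. No gene of the other 3 lists was called by edgeR.

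In IFNg against ctrl edgeR called 0 of 10 members, against 23.6% of all 11563 tested genes. An unadjusted edgeR p under 0.05 was found for 3 members, against 3854 of all genes. DESeq2 called 2 members, Nfkb1 higher (adjusted p = 0.0353) and Nfkb2 lower (adjusted p = 0.0499). DESeq2 also called more of all genes than edgeR did. Neither share of members was above the matching share of all genes. The medians were -0.20 over the members and -0.01 over all genes. Macrophage markers summed to 14754 to 16512 CPM in IFNg and 21281 to 27079 CPM in ctrl (2 of 10 higher, 4 lower). Endothelial markers summed to 38.9 to 48.6 CPM in IFNg and 13.1 to 16.3 CPM in ctrl, dendritic cell markers to 6.15 to 8.01 and 1.65 to 4.04 CPM in the same order, and fibroblast markers to 4.69 to 6.29 and 9.66 to 12.5 CPM, with 1 gene of each of these 3 lists called higher. The part of these markers in the values below was not tested. Nfkb1 had 299, 261 and 290 CPM in IFNg, against 243, 236 and 239 CPM in ctrl, with groups apart (log2 0.24 ± 0.10, edgeR adjusted p = 0.0699). Nfkb2 had 71.8, 65.4 and 77.2 CPM in IFNg, against 88.6, 72.1 and 108 CPM in ctrl, with overlapping groups (-0.33 ± 0.13, edgeR adjusted p = 0.0794). Nfkbia had 54.8, 48.8 and 36.8 CPM in IFNg, against 57.3, 62.0 and 62.8 CPM in ctrl, with groups apart (-0.37 ± 0.16, edgeR adjusted p = 0.0961). Nfkbib stood at 46.5 ± 4.42 CPM in IFNg and 34.3 ± 9.45 CPM in ctrl (0.44 ± 0.22, edgeR adjusted p = 0.168), and Nfkbiz at 25 ± 4.4 and 30.9 ± 2.93 CPM in the same order (-0.31 ± 0.18, 0.256). Rel (0.33 ± 0.19), Rela (-0.22 ± 0.13), Relb (-0.29 ± 0.20), Nfkbie (-0.17 ± 0.28) and Bcl3 (0.03 ± 0.17) did not pass either. With the totals behind the RPKM values, which move the median of all genes to -0.17, Nfkb2 (-0.48, adjusted p = 0.00663), Rela (-0.37, 0.0305) and Nfkbia (-0.52, 0.018) were called lower. One member was called without IFNg library 1 (Nfkbia, -0.50, adjusted p = 0.045) and 1 without ctrl library 2 (Nfkb2, -0.46, 0.0143).

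The lists around the members held calls in IFNg against ctrl. Over the 4 lists, 22 of 74 tested genes were higher and 6 lower, beside 1566 and 1161 of all 11563 tested genes. Of 26 upstream genes 8 were higher and none was lower, led by Traf5 (1.09 ± 0.23), the adaptor gene Myd88 (162 ± 4.07 CPM in IFNg and 79.6 ± 3.77 CPM in ctrl, 1.02 ± 0.11) and the kinase gene Chuk (0.90 ± 0.14). In the non-canonical arm 4 of 9 were higher, led by Cd40 (2.11 ± 0.18), the lymphotoxin receptor gene Ltbr (0.78 ± 0.16) and Birc2 (0.75 ± 0.19), and Tnfrsf1b was lower (-1.11 ± 0.17). Of 15 feedback inhibitors 3 were higher, N4bp1 (0.96 ± 0.11), Cyld (0.91 ± 0.11) and Tnfaip3 (0.83 ± 0.14), and 3 lower, Otulin (-0.77 ± 0.15), Irak3 (-0.63 ± 0.20) and Tnip1 (-0.57 ± 0.13). Of 24 target genes 7 were higher and 2 lower, with a median of 0.19, also with genes at 0 counts at their bounds. Ptgs2 stood at 23.4 ± 3.59 CPM in IFNg and at 0 counts in ctrl, at least 412-fold higher, Ccl5 changed by 4.63 ± 0.17 and Ccl2 by 3.56 ± 0.46, and Ier3 (-2.36 ± 0.40) and the low-level chemokine gene Cxcl2 (-2.14 ± 0.70) were lower.

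**Figure D2:**
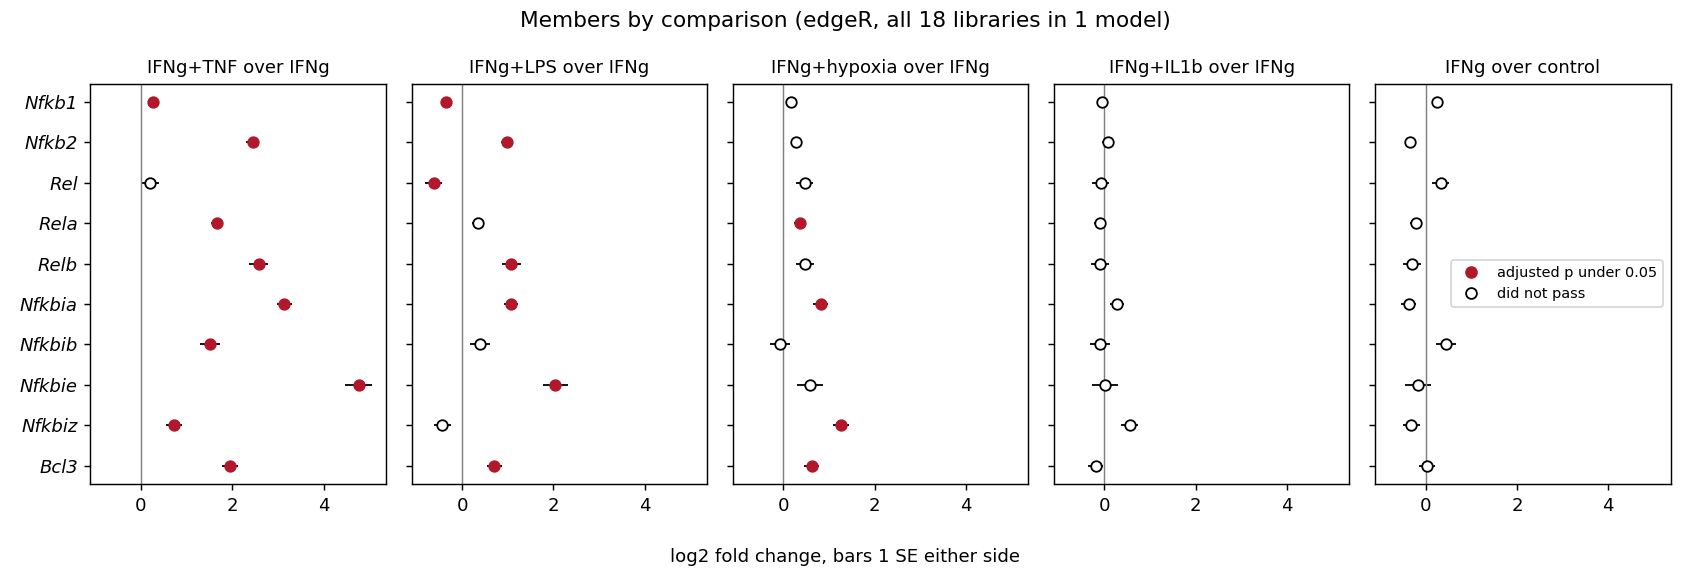
Log2 fold change of each member in the 5 comparisons, tested group over its comparison group, with bars of 1 SE either side. Filled points passed an edgeR adjusted p of 0.05: 9 members with TNF, 7 with LPS (2 of them below 0), 4 with hypoxia, and none with IL1b or with IFNg alone.

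Since the additions share the IFNg libraries, they were also compared with each other directly. All 10 members were lower in IFNg with LPS than in IFNg with TNF, with ranges apart in all 10 and the same count in each fit that left out a library, where 25.3% of all genes were called, 12.2% higher and 13.1% lower. The median was -1.28 over the members and 0.02 over all genes. The difference was largest in Nfkbie (46.8 ± 11.6 CPM with LPS and 312 ± 21.4 CPM with TNF, log2 -2.73 ± 0.27, edgeR adjusted p = 1.79e-07) and Nfkbia (98.3 ± 25.9 and 412 ± 62.0 CPM in the same order, -2.07 ± 0.16, 2.74e-10). Relb (-1.50 ± 0.20), Nfkb2 (-1.47 ± 0.13), Rela (-1.32 ± 0.13), Bcl3 (-1.24 ± 0.17), Nfkbiz (-1.15 ± 0.18) and Nfkbib (-1.11 ± 0.22) followed, and the smallest were Rel (-0.83 ± 0.19) and Nfkb1 (-0.61 ± 0.10). Of 24 target genes 19 were lower with LPS than with TNF and 1, Ccl2 (1.1 ± 0.38), was higher. The call on Ccl2 ended with DESeq2, with a replicate block, without the filter on low counts, and on leaving out any 1 of the 6 libraries but TNF library 2. With the totals behind the RPKM values, which move the median of all genes to 0.26, all 10 members were lower as well. Of all genes 2621 were then higher and 884 lower.

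Between TNF and hypoxia, 39.0% of all genes were called, 18.9% higher with TNF and 20.1% lower. Of the members 7 were higher in IFNg with TNF than in IFNg with hypoxia and 1 was lower, with ranges apart for 8 and a median of 1.46, against -0.01 over all genes. The one lower member was Nfkbiz, at 46.5, 37.4 and 39.6 CPM with TNF and 54.7, 67.7 and 57.6 CPM with hypoxia (log2 -0.54 ± 0.18, edgeR adjusted p = 0.0183). The call on Nfkbiz ended without TNF library 2 (-0.48, adjusted p = 0.0746), TNF library 3 (-0.51, 0.0555) or hypoxia library 2 (-0.45, 0.0948). Nfkbie (4.18 ± 0.29), Nfkbia (2.31 ± 0.16), Nfkb2 (2.16 ± 0.14), Relb (2.10 ± 0.20), Nfkbib (1.59 ± 0.22), Bcl3 (1.33 ± 0.17) and Rela (1.31 ± 0.13) were higher with TNF. Nfkb1 (0.08 ± 0.10, edgeR adjusted p = 0.553) and Rel (-0.27 ± 0.19, 0.289) did not pass the test.

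Between LPS and hypoxia, 30.0% of all genes were called, 14.4% higher with LPS and 15.5% lower, and the members divided evenly. Nfkbie (46.8 ± 11.6 CPM with LPS and 17.2 ± 4.84 CPM with hypoxia, log2 1.44 ± 0.27, edgeR adjusted p = 0.000317), Nfkb2 (0.69 ± 0.13, 0.000229) and Relb (0.60 ± 0.20, 0.0245) were higher with LPS. Nfkbiz had 16.5, 18.5 and 20.6 CPM with LPS, against 54.7, 67.7 and 57.6 CPM with hypoxia (-1.69 ± 0.19, edgeR adjusted p = 6.15e-08). Rel had 25.9, 26.8 and 32.9 CPM with LPS, against 61.1, 53.1 and 68.0 CPM with hypoxia (-1.09 ± 0.19, edgeR adjusted p = 7.18e-05), and Nfkb1 was lower with LPS as well (-0.52 ± 0.10, 0.000129). The groups of Nfkbiz and of Rel lay well apart. Rela stood at 183 ± 5.89 CPM with LPS and 184 ± 6.73 CPM with hypoxia (-0.01 ± 0.13). Nfkbia (0.25 ± 0.16), Nfkbib (0.48 ± 0.22) and Bcl3 (0.09 ± 0.17) did not pass the test. With the totals behind the RPKM values Nfkbia (0.41, edgeR adjusted p = 0.0495) and Nfkbib (0.64, 0.0228) joined those higher with LPS. The members then split into 5 higher and 3 lower, beside 2457 and 1319 of all genes. The same 2 genes were called without LPS library 3 (0.43 and 0.72). The call on Relb ended without LPS library 1 (0.39, adjusted p = 0.17), hypoxia library 2 (0.51, 0.106) or hypoxia library 3 (0.54, 0.0911).

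Across the 6 groups the order of levels differed between members. In Nfkb2, Relb, Nfkbia, Nfkbib, Nfkbie and Bcl3 IFNg with TNF came first, without overlapping IFNg with LPS, which came second by its mean and overlapped the third group in all of these but Nfkb2 and Nfkbie. Rela was first with TNF, and hypoxia and LPS followed without differing beyond their spread. For Nfkbiz the order was hypoxia, TNF, IL1b, ctrl, IFNg and LPS, where TNF and IL1b, IL1b and ctrl, and ctrl and IFNg overlapped and LPS was below IFNg in every library. For Rel the order was hypoxia, TNF, IFNg, IL1b, ctrl and LPS, and each neighbour overlapped the next. Nfkb1 ran from TNF over hypoxia, IFNg, IL1b and ctrl to LPS, and was the member whose group means differed by the smallest ratio, from 223 ± 12.5 CPM with LPS to 339 ± 13.7 CPM with TNF.

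Per length, the make-up of the family differed between the groups. These shares and ratios use RPKM within a library and so do not depend on scaling between libraries. An exact permutation test of 3 against 3 cannot go below 0.1, so they are given as values. Nfkb1 supplied 18.8, 17.3 and 17.5% of the summed subunit RPKM in IFNg with TNF, against 42.4, 34.8 and 39.8% in IFNg, while Nfkb2 supplied 25.2, 20.1 and 21.8% with TNF, against 11, 9.4 and 11.4% in IFNg. The share of Nfkb1 was lower and that of Nfkb2 higher in every TNF library. The ratio of Nfkb1 to Nfkb2 was 0.804 ± 0.0572 with TNF, 1.48 ± 0.137 with LPS, 3.41 ± 0.429 with hypoxia, 3.36 ± 0.049 with IL1b, 3.68 ± 0.188 in IFNg and 2.54 ± 0.493 in ctrl. Nfkb2 was above Nfkb1 per length in the 3 TNF libraries and below it in the 15 libraries of the other groups.

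Relb supplied 13 ± 1.01% of subunit RPKM with TNF and 5.65 ± 1.29% in IFNg, and Rel 4.37 ± 0.441% with TNF and 9.91 ± 1.93% in IFNg. Rela held 42.4 ± 4.03% with TNF and 34.8 ± 3.23% in IFNg, and with hypoxia 36.2 ± 0.614%. The ratio of Rel to Rela, the 2 subunits that activate transcription in the canonical arm, was 0.103 ± 0.00442 with TNF, 0.146 ± 0.0237 with LPS, 0.309 ± 0.0455 with hypoxia, 0.291 ± 0.0356 with IL1b, 0.283 ± 0.0293 in IFNg and 0.195 ± 0.0499 in ctrl. Nfkb2 and Relb, the non-canonical pair, kept a group mean ratio between 1.67 (hypoxia) and 2.13 (IL1b), with 1.72 ± 0.0676 with TNF and 1.96 ± 0.611 in IFNg. The ratio of this pair thus differed less between groups than that of Nfkb1 to Nfkb2, although the IL1b libraries (1.89 to 2.28) lay above the hypoxia libraries (1.43 to 1.86).

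The balance of inhibitor to subunit transcripts was highest with TNF. The ratio of summed inhibitor to summed subunit RPKM was 1.64, 1.19 and 1.58 in IFNg with TNF, 0.956, 0.929 and 0.722 with LPS, 0.685, 0.653 and 0.676 with hypoxia and 0.621, 0.594 and 0.636 with IL1b, against 0.6, 0.575 and 0.477 in IFNg and 0.498, 0.614 and 0.599 in ctrl. Every TNF, LPS and hypoxia library lay above every IFNg library, and with TNF the inhibitor transcripts outweighed those of the subunits. With only the 3 classical inhibitors the ratio was 1.3 ± 0.236 with TNF, 0.707 ± 0.148 with LPS, 0.468 ± 0.0146 with hypoxia, 0.463 ± 0.00362 with IL1b, 0.413 ± 0.0543 in IFNg and 0.426 ± 0.0737 in ctrl. The summed RPKM of the 5 subunits was 293 ± 22 with TNF and 140.3 ± 5.74 in IFNg, and that of the 5 inhibitors 428 ± 42.8 and 77.4 ± 10.8 in the same order.

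Within the classical inhibitors the mix changed too. Nfkbie supplied 31.1, 36.6 and 34.2% of their RPKM with TNF and 18.0, 23.7 and 22.1% with LPS, against 9.04, 11.7 and 9.48% in IFNg, and 10.8 ± 2.29% with hypoxia. Nfkbib supplied 14.5 ± 1.38% with TNF and 42.1 ± 4.19% in IFNg, while the share of Nfkbia was 51.6 ± 2.44% with TNF and 47.9 ± 4.72% in IFNg. In rank by RPKM, Nfkbie was the lowest of the 10 members in IFNg, at 5.87, and stood second with TNF, at 128, after Nfkbia at 196. Nfkb1 was first in IFNg, at 54.6, and with TNF it was at 52.4 in place 6. These RPKM levels also depend on the library totals, and after TMM scaling Nfkb1 was higher with TNF (log2 0.26 ± 0.10).

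**Figure D3:**
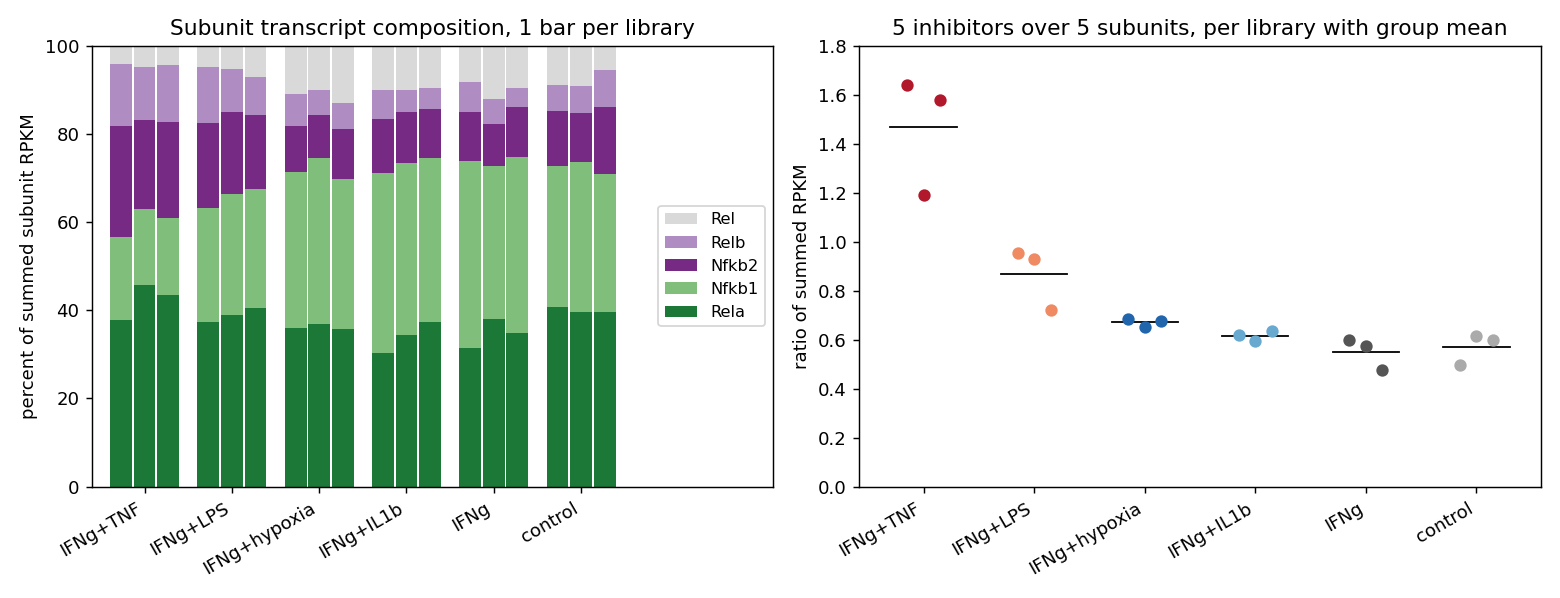
Left, percent of the summed RPKM of the 5 subunits supplied by each subunit, 1 stacked bar per library from 0 to 100. Right, ratio of the summed RPKM of 5 inhibitors to that of 5 subunits per library, with group means as lines: the TNF libraries lie at 1.19 to 1.64, the LPS libraries at 0.722 to 0.956 and the IFNg libraries at 0.477 to 0.6.

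Over the 18 libraries the members fell into 2 sets by the correlation of their log2 CPM, sets that were drawn after the values were seen. Nfkb2, Rela, Relb, Nfkbia, Nfkbib, Nfkbie and Bcl3 correlated with each other at r of 0.82 to 0.98 (median 0.94, 21 pairs). Nfkb1, Rel and Nfkbiz correlated at 0.70 to 0.76 among themselves, and at 0.04 to 0.52 with the first set. The libraries of IFNg with TNF stand apart from the rest in the first set. Without them, over 15 libraries, the first set had r of 0.23 to 0.89 (median 0.73), the second 0.72 to 0.78, and the pairs between the sets -0.61 to 0.10 (median -0.23). The lowest value was between Nfkb2 and Rel, and Nfkbib was the loosest of the first set, at 0.23 with Rela. These values share library, group and depth and carry no test.

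**Figure D4:**
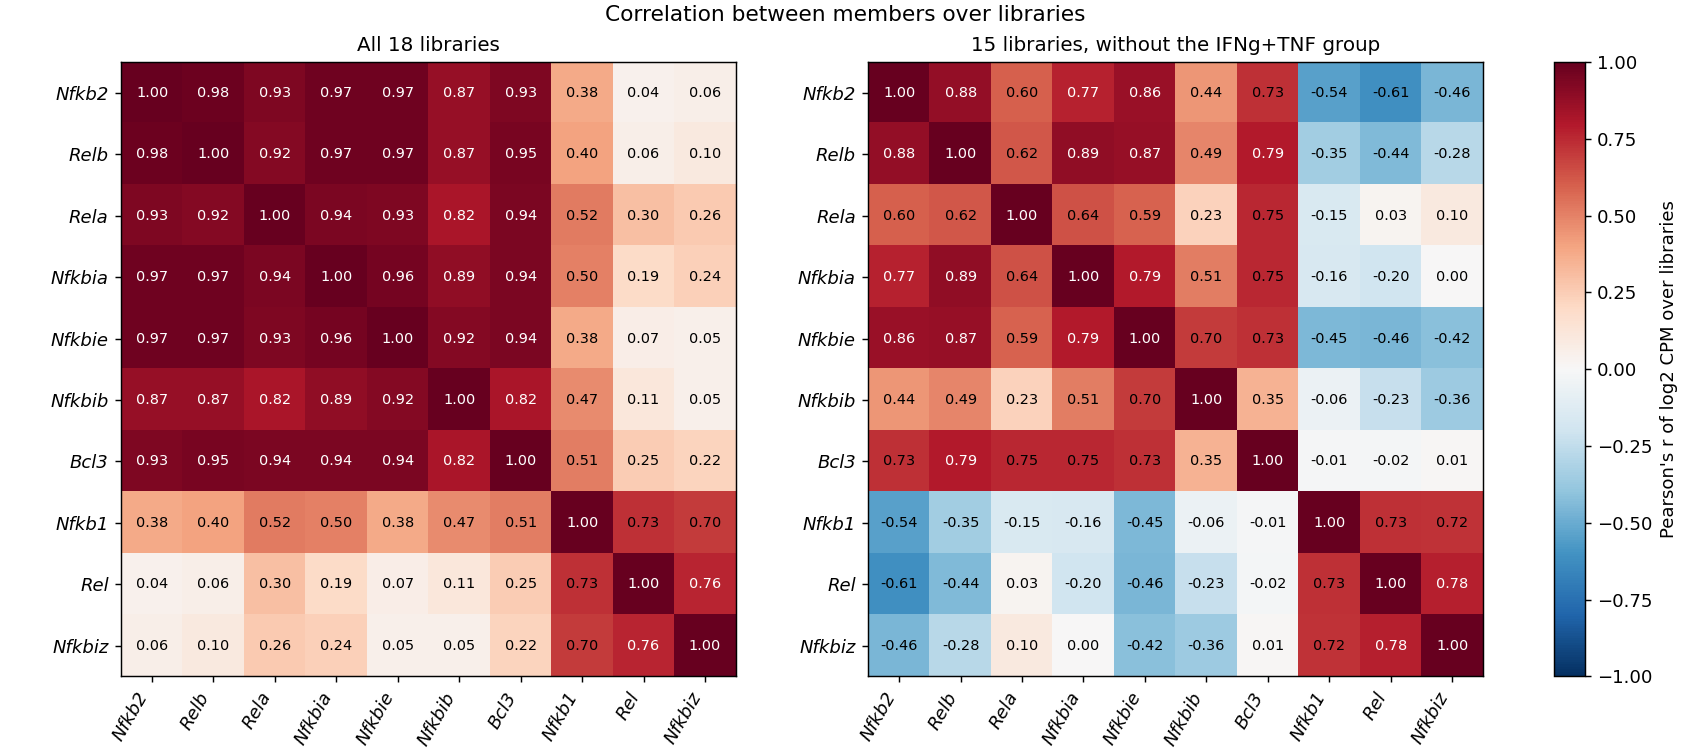
Pearson correlation of log2 CPM between members over all 18 libraries (left) and over the 15 libraries without IFNg with TNF (right), coloured from -1 to 1. Nfkb2, Relb, Rela, Nfkbia, Nfkbie, Nfkbib and Bcl3 form a block of 0.82 to 0.98 on the left and 0.23 to 0.89 on the right, and Nfkb1, Rel and Nfkbiz a block of 0.70 to 0.76 and of 0.72 to 0.78.

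Outside the members and the lists, the genes whose log2 CPM followed a member most closely over the same 18 libraries were sought among the 3 highest correlations for each. For Nfkbie they were Ets2, a transcription factor (r = 0.988), Dusp1, a phosphatase of MAP kinases (0.978), and Itga5, an integrin (0.974). For Nfkbia they were Gpr132 (0.984), Fam102b (0.975) and Sra1 (0.974), and for Nfkbib Abhd17c (0.966) and Vps37a (0.946). For Nfkb2 they were Abcc1 (0.978), Ets2 (0.977) and Edem2 (0.975), and for Relb Ets2 (0.964) and Fam102b (0.963), so Ets2 was near 3 members. Rela was nearest to Lrrfip2 (0.962), Slc27a4 (0.957) and Arrdc4 (0.955), and Bcl3 to Csf2rb, the shared chain of the GM-CSF receptor (0.972) and Lrrfip2 (0.971). The second set had looser neighbours over these 18 libraries. The search was not repeated without the TNF libraries, which stand apart from the rest in the first set. Nfkb1 was nearest to Spata13 (0.866), Piga (0.865) and Rhog (0.863), Rel to Setd2, a histone methyltransferase (0.882), Tmem123 (0.878) and Akap13 (0.863), and Nfkbiz to Trim72 (0.871), R3hcc1l (0.859) and Gypc (0.839).

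On mm10 the members lie on 7 chromosomes, with Relb, Bcl3 and Nfkbib on chromosome 7 (chr7:19606217-19629438, chr7:19808462-19822770 and chr7:28758251-28767512, all on the minus strand), and Nfkb2 and Rela on chromosome 19 (chr19:46304320-46312385 and chr19:5637483-5648130, both on the plus strand). Nfkbie lies at chr17:45555703-45563169 on the plus strand, and Nfkb1 (chr3:135584655-135691547), Rel (chr11:23736847-23770970), Nfkbia (chr12:55489410-55492647) and Nfkbiz (chr16:55811375-55838899) on the minus strand. In GENCODE M21 the coding part of Bcl3 shares 55 bases with the antisense gene Gm16175, which was not counted in the files, and no other member shares coding bases with another gene.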

How the data were processed

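The deposited tables held, for each of 18 libraries, the authors' read count per gene, a gene width and an RPKM value. Per the labels' protocols, a stranded mRNA kit took 100 ng of RNA and reads were single-end. The submitters' processing notes name GSNAP and mm10. What tool counted reads, and whether it used strand, is not stated there. The authors' RPKM values point to totals between 22728833 and 39859629 reads per library, and the counts make up 51.7 to 56.5% of them. Of the gene identifiers 22457 matched a symbol, and 86.7% of widths were multiples of 3, so the counts were read as counts over coding parts, which is not stated.

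Counts were tested with edgeR 4.0.16 in R 4.3.3 (TMM, default filterByExpr, robust glmQLFit, glmQLFTest) fitting the 6 group means to the 18 libraries at once. Within each of 8 comparisons p-values were adjusted over all 11563 tested genes by the Benjamini-Hochberg method, with 0.05 as the threshold. TMM factors ran from 0.805 to 1.186, and a floor of 3 counts in a library was 0.151 to 0.255 CPM and covers counting error only. The scripts were first tested on simulated data. Counts of libraries of a group differed by 12 to 51.2 times Poisson noise (chi-square per degree of freedom), so none was a copy of another.

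Alternatives were DESeq2 1.42.0, its size factors in edgeR, the totals behind the RPKM values, no filter, a fit of only the 2 groups, a replicate block and leaving out each library. In the text, all 10 members are named, with, per list and comparison, up to 3 higher and 3 lower called genes of largest log2 fold change, and the 3 genes nearest each member, of which some are not reported here. The members and lists were chosen with earlier results of these data known. Of the target list 24 of 25 genes passed the filter.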

Additional observations from a re-analysis of the deposited data

How the results depend on the processing

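Counts of member calls stayed within 1.5 times their value for TNF, LPS and all 3 direct comparisons under each alternative that was run, and directions of called members held except where given in the report. In IFNg against ctrl the 0 members called became 3 with the totals behind the RPKM values, 2 with the replicate block and 2 with DESeq2, and 0 to 1 without 1 library. The 4 members called with hypoxia became 2 with the totals behind the RPKM values and ran from 2 to 5 without 1 library, lowest without hypoxia library 1. Of all genes, the 35 called with IL1b became 68 with only the 2 groups and 84 with DESeq2, and ran from 15 to 35 without 1 library. The cause was not tested.

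Some members changed sign between fits. Nfkb1 with TNF was called in the main fit (log2 0.26, edgeR adjusted p = 0.0311), and the others that changed sign were not called there. With the totals behind the RPKM values the sign changed for Bcl3 in IFNg against ctrl (-0.12) and for Nfkb1 (-0.06) and Rel (-0.11) with TNF. It also changed for Nfkb1 with hypoxia (-0.07) and Rela between LPS and hypoxia (0.16, and 0.02 with only the 2 groups). Without 1 library, values in IFNg against ctrl ran from -0.46 to 0.21 for Nfkbie and from -0.11 to 0.12 for Bcl3. With IL1b they ran from -0.22 to 0.11 for Rel, from -0.21 to 0.02 for Rela, from -0.26 to 0.04 for Relb, from -0.22 to 0.02 for Nfkbib and from -0.12 to 0.21 for Nfkbie. Nfkbib with hypoxia ran from -0.12 to 0.00, and between LPS and hypoxia Rela ran from -0.03 to 0.02 and Bcl3 from -0.02 to 0.20.

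Libraries share the numbers 1 to 3 across groups, which the labels do not explain and which may or may not mark a common source. Correlations of the deviations of same-numbered libraries ran from -0.0556 to 0.233, with no comparison above 0.1 in all 3 pairs, so the numbers were not used to pair libraries. With the number as a replicate block 2 members, Nfkb1 (adjusted p = 0.047) and Nfkbia (0.0454), were called in IFNg against ctrl, Rela was called with LPS (0.031), and 6 upstream genes with hypoxia (4 higher, 2 lower). Correlations without the TNF libraries were added after seeing the data. With 3 libraries a group, ratios and shares carry no test, and low-level genes rest on few counts.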
